A study of Oryza sativa with 12 samples.

Results

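Late-stage (LE) embryos of the rice mutant *Oslec1-1* were compared with wild type LE embryos at 25 days after pollination (DAP), the maturation phase of the seed. The comparison rested on 6 of the 12 libraries of the series, 3 of wild type Nipponbare (NIP) and 3 of *Oslec1-1*, picked by the genotype and age in the sample records. *Oslec1-1* is 1 CRISPR/Cas9 line in the Nipponbare background. It carries a deletion and an insertion of 1 bp each at the guide RNA sites of *OsLEC1*, which shift the reading frame and end the protein early. Both groups were untreated greenhouse plants of the same age, and embryos were collected. The remaining 6 libraries came from embryos of both genotypes at 7 DAP (EE) and are used here only where an effect at LE is set beside that at EE.

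*LEC1* encodes a B subunit of the NF-Y complex, a trimeric transcription factor that binds CCAAT motifs in promoters. In Arabidopsis, LEC1 keeps the embryo on its path through maturation, when storage reserves are laid down, the tissue dries and germination is held back. A mature cereal embryo is not green. The photosynthetic apparatus is normally assembled in the shoot after germination in the light, with antenna proteins that bind chlorophyll and pass the absorbed energy to the photosystems.

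NIP libraries held 17836409 to 25492787 counts in total, and *Oslec1-1* libraries 22732266 to 27213238. The limit set by a count of 0 was 3 counts, which was 1.1e-05% to 1.68e-05% of the total and covers counting error only. Replicates had Spearman coefficients of 0.976 to 0.986 across genes, and all 6 pairs of replicates differed by more than sampling noise (chi-square per gene of 5.82 to 33.4). The study speaks of biological replicates but does not say whether they came from separate plants, so the *p*-values measure the spread between these collections. In a whole embryo, more cells of a type and more RNA per cell cannot be told apart. The identifiers of the count table come without gene symbols, so *OsLEC1* itself was not analysed here, and neither were defining markers of endosperm, embryo or leaf. A shift of 1 bp would in any case leave the gene countable. Genes were described by the Gene Ontology (GO) terms that the study's supplement attaches to their identifiers, and by the names the deposited files give to RNA genes and organelle genes. Values are normalized counts, that is, counts scaled to the mean library, unless FPKM is named.

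Of the 24065 genes tested, 1995 were upregulated in *Oslec1-1* LE embryos, 8.29% of those tested, and 298 were downregulated, 1.24% (edgeR quasi-likelihood test). A call required a Benjamini-Hochberg adjusted *p* under 0.05 together with a log2 fold change of 2 or more in size. Over all genes tested, the log2 fold change had a median of 0.02. The upregulated genes took 0.535 ± 0.105% of the counts in NIP (SD, n = 3) and 4.49 ± 0.226% in *Oslec1-1*. The downregulated genes took 4.53 ± 0.168% of the counts in NIP (SD, n = 3) and 0.69 ± 0.056% in *Oslec1-1*. Most of this came from 1 gene, Os08g0104400, with 2.68 ± 0.126% in NIP (SD, n = 3) and 0.366 ± 0.025% in *Oslec1-1*. A log2 fold change of 4 or more was reached by 703 upregulated genes (35.2%), and one of -4 or less by 34 downregulated genes (11.4%). In 171 upregulated genes the 3 NIP libraries had no count at all, and in 5 downregulated genes the 3 *Oslec1-1* libraries had none. When the tested genes were sorted by mean FPKM into 4 bins of equal size, 18.1% of the lowest bin and 3.19% of the highest were upregulated. The corresponding shares of downregulated genes were 2.51% and 0.831%.

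Genes of light harvesting, which encode or assist the chlorophyll-binding antenna, rose together in the LE embryos. The GO list for this term holds 17 genes, all of them tested, of which 15 were upregulated and 0 downregulated, with a median log2 fold change of 4.76. The list was drawn up by the study from genes that rose at EE. Of all 2157 genes called upregulated at EE and tested here, 50.3% were also upregulated at LE and 0.371% were downregulated. Their median log2 fold change at LE was 2.03. This is the background against which the GO lists stand. A list with 0 downregulated members is near that share, and the 0 is no result about the list. Summed over the list, the NIP libraries had 782, 761 and 818 normalized counts and the *Oslec1-1* libraries 22964, 18976 and 18362. The groups were far apart, by 25.5-fold in the means, with little spread inside either.

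The most abundant antenna gene per length was Os09g0346500 (IRGSP-1.0, chromosome 9, 10845779 to 10847012), annotated with chlorophyll binding. It had 119, 87.8 and 60.8 normalized counts in NIP and 5107, 4203 and 3772 in *Oslec1-1*. All mutant libraries were high and all wild type libraries low, and the level rose from 2.58 to 133 FPKM (log2 fold change 5.63, standard error 0.26, edgeR adjusted *p* = 1.04e-05). Os06g0320500 (chromosome 6, 12452708 to 12454049), another chlorophyll-binding gene, was all but silent in the wild type. It had 0, 0 and 1 count in NIP and 2582, 1682 and 1790 counts in *Oslec1-1*, a ratio of 5390 after scaling, with a 95% counting interval of 967 to 212890. Os01g0600900 (chromosome 1, 23607363 to 23608541) went from 1.37, 2.83 and 1.03 normalized counts to 3463, 3038 and 2800, or from 0.0781 to 99.6 FPKM (log2 fold change 10.65, standard error 0.22, edgeR adjusted *p* = 1.14e-06). Os09g0439500 had no count in NIP and 133, 86.6 and 77.2 normalized counts in the mutant.

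The genes of the light-harvesting list were not alike in the wild type. Levels in NIP LE embryos ran from 0 counts for Os09g0439500 to a mean of 183 normalized counts for Os07g0171100. The members Os02g0764500 and Os07g0171100 did not pass the test. Os07g0171100 is not on the list for chlorophyll binding. Os02g0764500 had 24.6, 40.6 and 90.7 normalized counts in NIP and 50.02, 72.8 and 81.1 in *Oslec1-1* (log2 fold change 0.37, edgeR adjusted *p* = 0.529), so that the groups overlapped. Os07g0171100 had 198, 180 and 171 in NIP and 203, 223 and 218 in the mutant (log2 fold change 0.23, standard error 0.12, edgeR adjusted *p* = 0.147). These groups did not overlap, but the difference was small. Within the mutant, *Oslec1-1* LE-1 was the highest library for 15 of the 17 genes, and its sum over the list was 1.25-fold that of the lowest mutant library.

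**Figure D1:**
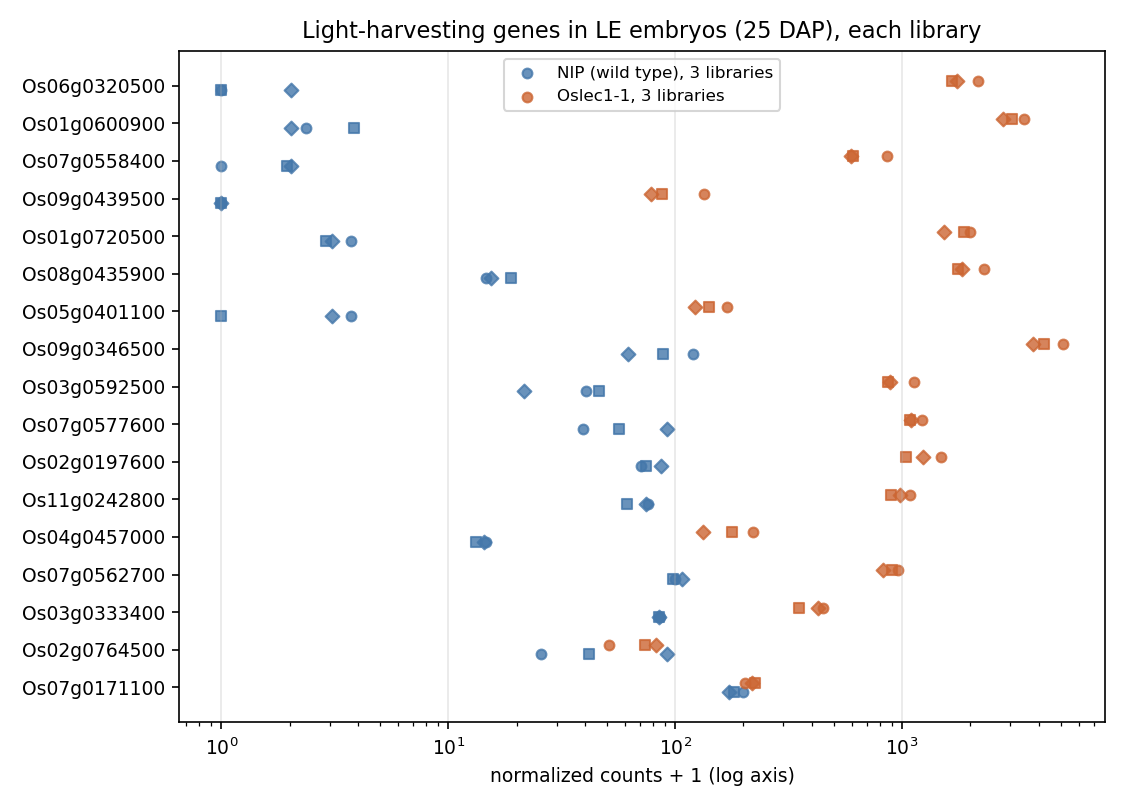
Normalized counts plus 1 (log axis) of the 17 genes of the light-harvesting list in each LE library, with NIP in blue and *Oslec1-1* in orange, the symbols standing for replicates 1 (circle), 2 (square) and 3 (diamond). For 15 genes the mutant libraries lie far to the right of the wild type libraries, and for the lowest 2 genes in the plot they lie close to them.

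The wider machinery of photosynthesis moved with the antenna. In the copies used here, the lists for the light reaction and for photosynthesis hold 30 genes each, and overlap with each other and with light harvesting. Of the light reaction genes, 25 were upregulated and 0 downregulated (median 3.95). Of the photosynthesis genes, 27 were upregulated and 0 downregulated (median 5.36). All 30 photosynthesis genes had an adjusted *p* under 0.05 with a positive log2 fold change, and the 3 that missed the fold limit had log2 fold changes of 1.58, 1.61 and 1.95. In all 30, every *Oslec1-1* library lay above every NIP library, which held for 1715 of the 2157 genes called upregulated at EE and for 30.7% of all tested genes. The highest level belonged to Os01g0501800 (chromosome 1, 17349338 to 17350785), annotated with the light reaction and oxidoreductase activity. It had 15.0, 22.6 and 25.8 normalized counts in NIP and 5525, 4354 and 4718 in *Oslec1-1* (log2 fold change 7.81, standard error 0.20, edgeR adjusted *p* = 1.52e-06). The mean level of Os01g0501800 rose from 0.567 to 137 FPKM. Transcripts of the plastid genome mostly lack a stable poly(A) tail, and the libraries were selected for poly(A). The only tested plastid gene, gene-psaC, which encodes an iron-sulfur subunit of photosystem I, had 21.9, 1.89 and 14.4 normalized counts in NIP and 15.8, 27.5 and 31.3 in *Oslec1-1*. The groups overlapped (log2 fold change 1.02, standard error 0.66, edgeR adjusted *p* = 0.236).

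Transcription factors bind DNA and set the activity of other genes. The list for DNA-binding transcription factor activity is a copy of 30 genes that rose at EE and does not stand for all transcription factors. Of its 25 tested members, 15 were upregulated and 1 downregulated (median 2.52), beside 50.3% upregulated among all genes that rose at EE. Of its 3 upregulated members with the most counts, the largest fold was that of Os03g0183000 (chromosome 3, 4348736 to 4350531), with 23.2, 22.6 and 27.8 normalized counts in NIP and 1395, 1309 and 1125 in *Oslec1-1*. The groups were wide apart and tight (log2 fold change 5.69, standard error 0.15, edgeR adjusted *p* = 1.52e-06). Os03g0188900 had 422, 634 and 1216 normalized counts in NIP and 3329, 4680 and 4460 in *Oslec1-1*, with NIP LE-3 as the highest wild type library. Os04g0398000 rose from 264, 223 and 287 to 1519, 1569 and 1575 normalized counts (log2 fold change 2.59, standard error 0.11, edgeR adjusted *p* = 8.05e-06).

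The member that fell was Os06g0181700 (chromosome 6, 4040784 to 4041763). It had 231, 182 and 109 normalized counts in NIP and 58.4, 33.4 and 26.4 in *Oslec1-1* (log2 fold change -2.12, standard error 0.37, edgeR adjusted *p* = 0.00328). The groups did not overlap, and its log2 fold change was -1.88 without NIP LE-1 and -1.91 without *Oslec1-1* LE-3, inside the fold limit.

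Genes with the nutrient reservoir term gave a different picture, in which a single library set much of the result. Nutrient reservoir activity is the GO term given to seed storage proteins, which are made in bulk in the endosperm and, to a lesser extent, in the embryo. The term alone does not show that a gene encodes a storage protein. In the copy used here, its list holds 30 genes, of which 25 were tested and 16 upregulated, with 0 downregulated and a median of 2.67. Among all genes that rose at EE, 50.3% were upregulated, with a median of 2.03. The sums over the list were 5371, 3485 and 2059 normalized counts in NIP and 29649, 4123 and 14859 in *Oslec1-1*. Thus LE-1 and LE-3 of the mutant were high, while *Oslec1-1* LE-2 lay within the wild type range. LE-2 was the lowest mutant library for 21 of the 25 genes, and it exceeded every NIP library for 10. Os01g0762500 (chromosome 1, 32076744 to 32078652) had 535, 342 and 231 normalized counts in NIP and 4909, 345 and 1816 in *Oslec1-1* (log2 fold change 2.68, standard error 0.84, edgeR adjusted *p* = 0.0332), and the groups overlapped. Without *Oslec1-1* LE-1, 10 members were upregulated, without NIP LE-2 there were 6, without NIP LE-3 there were 11, without *Oslec1-1* LE-3 there were 11, and without *Oslec1-1* LE-2 there were 22.

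The same gene had many more counts at EE, in both genotypes. Os01g0762500 had 27616, 34458 and 27292 normalized counts in NIP EE embryos and 228234, 214388 and 219018 in *Oslec1-1* EE embryos. Library normalization was done within each stage, so these EE levels are given beside those at LE without a test. Whether endosperm adhering to the embryos took part in the LE values was not tested.

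Some members were picked because they did not follow this library pattern, so their shared direction in all 3 mutant libraries was fixed by the choice. They are known here only by the term and were not identified as storage protein genes. Os09g0568500 (chromosome 9, 22695120 to 22696145) had 0 counts in every NIP library and 129, 167 and 92.9 normalized counts in *Oslec1-1*, at least 31.6-fold higher against a floor of 3 counts per library. Os02g0532500 had 24.6, 9.44 and 10.3 normalized counts in NIP and 142, 164 and 261 in *Oslec1-1*. Os09g0568700 had 69.7, 42.5 and 97.9 in NIP and 447, 524 and 368 in *Oslec1-1*. These genes were chosen after their values were seen.

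IgE binding is the term of seed allergens, and its list holds 7 genes. Of these, 6 were tested and 3 upregulated, near the 50.3% among all genes that rose at EE. The sums over the list were 935, 555 and 241 normalized counts in NIP and 5885, 590 and 2529 in *Oslec1-1*. The same mutant library, LE-2, again lay within the wild type range, with LE-1 far above it. The 3 upregulated members also carry the nutrient reservoir term, so this partly recounts the same genes. Os07g0216700 and Os07g0214600 also carry the term for serine-type endopeptidase inhibitors. Os07g0216700 had 32.8, 23.6 and 23.7 normalized counts in NIP and 393, 39.3 and 180 in *Oslec1-1* (log2 fold change 2.95, standard error 0.76, edgeR adjusted *p* = 0.0164). The number of upregulated members was 0 without NIP LE-2, 1 without *Oslec1-1* LE-1, 2 without *Oslec1-1* LE-3, 5 without NIP LE-1 and 7 without *Oslec1-1* LE-2. Of the 7 genes, 5 lie within 178.2 kb on chromosome 7 (6254882 to 6433104), where close copies may share reads, so that the values of single members are uncertain.

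The serine-type endopeptidase inhibitors, which block proteases of the seed or of its attackers, showed both patterns. Of 14 tested members, 8 were upregulated and 0 downregulated (median 2.21), beside 50.3% upregulated (median 2.03) among all genes that rose at EE. Os07g0215500, in the chromosome 7 region above, had 77.9, 37.7 and 20.6 normalized counts in NIP and 640, 62.0 and 301 in *Oslec1-1*, with groups that overlapped. Os01g0124100 had 342, 244 and 269 in NIP and 1410, 1145 and 1183 in *Oslec1-1*, with groups well apart (log2 fold change 2.13, standard error 0.15, edgeR adjusted *p* = 5.65e-05). The member with the most counts, Os01g0124200, missed the fold limit, with 10262, 8380 and 7397 normalized counts in NIP against 32198, 25410 and 27585 (log2 fold change 1.71, standard error 0.15). Without NIP LE-2, 4 members were upregulated, without *Oslec1-1* LE-1 there were 5, and without *Oslec1-1* LE-2 there were 12.

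**Figure D2:**
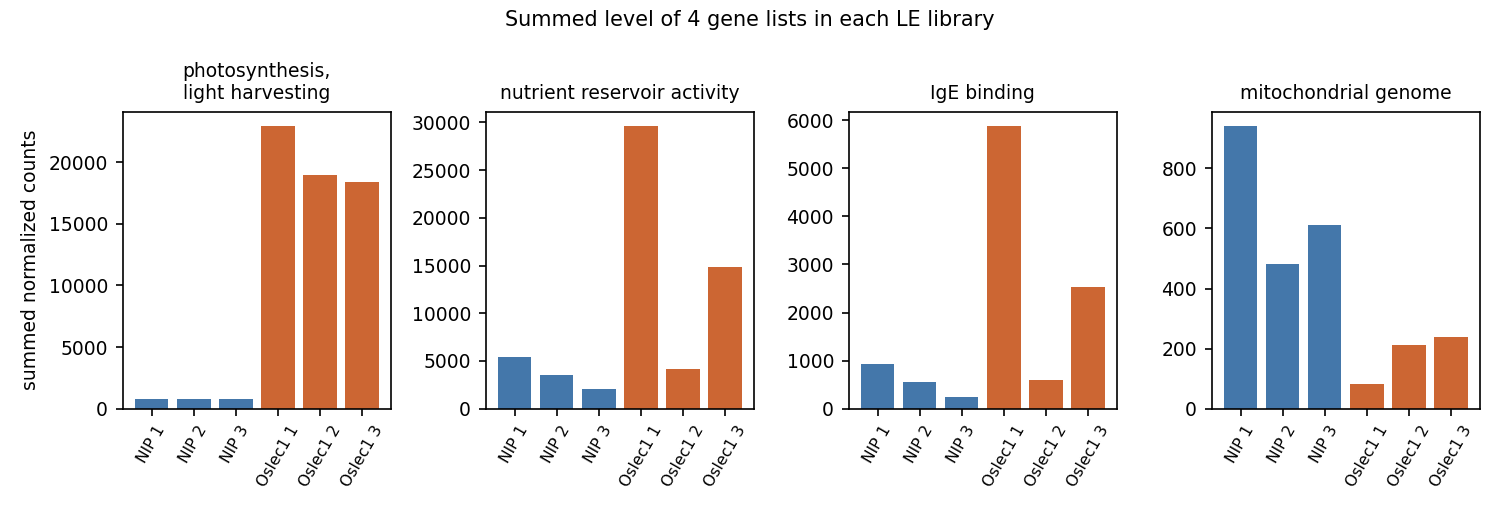
Bars give the summed normalized counts of 4 gene lists in each LE library, NIP in blue and *Oslec1-1* in orange, on axes that start at 0. Light harvesting is high in all 3 mutant libraries, the nutrient reservoir and IgE binding sums of *Oslec1-1* LE-2 (4123 and 590) lie within the wild type range, and the mitochondrial sums are lower in all mutant libraries.

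Chitinases, enzymes that cut the chitin of fungal walls, rose in part, and several of them were silent in the wild type. Of 23 tested members, 15 were upregulated and 0 downregulated (median 2.79), beside 50.3% upregulated among all genes that rose at EE. The groups did not overlap for any of the 15. Os04g0493400 (chromosome 4, 24687753 to 24689297) had 0 counts in each NIP library and 879, 441 and 707 normalized counts in *Oslec1-1*, at least 165-fold higher against 3 counts per library (edgeR adjusted *p* = 0.000145). Its neighbours on the list, Os04g0493600 and Os04g0494100, were also upregulated, and the 3 genes span 22.2 kb. Os04g0494100 had 0 counts in NIP and 143, 64.9 and 60.6 normalized counts in the mutant. Os05g0247800 (chromosome 5, 8959416 to 8960566) had the most counts of the called members, with 361, 311 and 541 normalized counts in NIP and 5291, 2670 and 2952 in *Oslec1-1*. In a 39.0 kb stretch of chromosome 11 (28722579 to 28761600), 10 chitinase genes are listed, of which 8 were tested and 6 upregulated. Os11g0700900 of that stretch had 61.5, 15.1 and 91.8 normalized counts in NIP and 1508, 1824 and 1699 in *Oslec1-1* (log2 fold change 4.92, standard error 0.48, edgeR adjusted *p* = 0.000239). Reads of such neighbouring copies may have been divided among them, and the count of members is less certain there.

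Genes of the defense response were upregulated in part. Of 29 tested members, 11 were upregulated and 0 downregulated, with a median of 1.70, below the 2.03 of all genes that rose at EE. The difference was not tested. For defense response to other organism, 15 of 30 were upregulated, with a median of 1.98, beside 50.3% among all genes that rose at EE. Os07g0615200 had 272, 213 and 335 normalized counts in NIP and 2372, 2911 and 2861 in *Oslec1-1* (log2 fold change 3.31, standard error 0.18, edgeR adjusted *p* = 1.96e-05). Os06g0726200 carries the terms for chitinase activity, chitin binding and defense against other organisms. It had 841, 628 and 741 normalized counts in NIP and 2335, 2606 and 4017 in *Oslec1-1*. The groups did not overlap, but its log2 fold change of 2.02 was inside the limit without NIP LE-2, at 1.92, and without *Oslec1-1* LE-3, at 1.75.

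Peroxidases use hydrogen peroxide to oxidize phenolic compounds, among them those of the cell wall. Of 29 tested members of the list, 19 were upregulated and 1 downregulated (median 2.56), beside the same background of 50.3%. The 3 upregulated peroxidase genes with the most counts included Os04g0688100 and Os04g0688300, neighbours on chromosome 4. Os04g0688100 (35187443 to 35189187) had 379, 282 and 252 normalized counts in NIP and 6040, 5618 and 4957 in *Oslec1-1* (log2 fold change 4.19, standard error 0.18, edgeR adjusted *p* = 8e-06). Os04g0688300 (35207157 to 35208610) had 75.2, 51.0 and 45.4 in NIP and 4188, 3372 and 3172 in *Oslec1-1* (log2 fold change 5.99, standard error 0.22, edgeR adjusted *p* = 4.42e-06). Together with Os04g0688200 they stand in a run of 5 neighbouring upregulated genes over 36.6 kb. Os10g0109300 had 0 counts in NIP and 290, 239 and 270 normalized counts in the mutant, at least 64.9-fold higher. The peroxidase gene that fell was Os07g0639000 (chromosome 7, 26603637 to 26604964), with 2136, 1967 and 1698 normalized counts in NIP and 409, 343 and 416 in *Oslec1-1* (log2 fold change -2.31, standard error 0.12, edgeR adjusted *p* = 1.84e-05). Its groups were far apart.

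Monooxygenases put 1 oxygen atom into their substrates. Of 26 tested members of their list, 16 were upregulated and 0 downregulated (median 2.58), beside the same background of 50.3%. The sums over their list were close within each group, at 2528, 2623 and 3167 normalized counts in NIP and 13987, 13585 and 13690 in *Oslec1-1*. Os11g0289700 had 127, 81.2 and 105 normalized counts in NIP and 3610, 3026 and 3081 in the mutant (log2 fold change 4.96, standard error 0.18, edgeR adjusted *p* = 4.36e-06). Os04g0570500 was without a count in NIP and had 325, 346 and 372 normalized counts in *Oslec1-1*, at least 84.7-fold higher.

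Lists of enzymes acting on sugars and walls differed in how many members were upregulated. Hydrolases of O-glycosyl bonds cut polysaccharides and glycosides, and 20 of their 30 tested members were upregulated, with 0 downregulated and a median of 2.86. Beside them stands the same background of 50.3%, with a median of 2.03. Os02g0765600 (chromosome 2, 32248329 to 32250174) had 403, 255 and 212 normalized counts in NIP and 3621, 4992 and 5271 in *Oslec1-1* (log2 fold change 4.003, standard error 0.27, edgeR adjusted *p* = 5.05e-05). Os04g0474800 rose from 97.1, 105 and 86.6 to 3319, 3522 and 3506 normalized counts, with hardly any spread (log2 fold change 5.16, standard error 0.11, edgeR adjusted *p* = 1.14e-06).

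Hexosyl transferases, which build glycosidic bonds, had 12 of 28 upregulated (median 1.87), beside 50.3% (median 2.03) among all genes that rose at EE. Os08g0160500, which carries this term and that of cell wall organization, had 194, 394 and 1351 normalized counts in NIP and 2698, 6399 and 5794 in *Oslec1-1*. NIP LE-3 was high and *Oslec1-1* LE-1 low for this gene, although the groups did not overlap. The same wild type library was the highest of the 3 for 19 of the 28 tested hexosyl transferases and for 44.8% of all 1995 upregulated genes, against 37.5% of all tested genes. Without NIP LE-3, 2524 genes were upregulated in all. Whether this collection differed in age or dissection was not tested.

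Cell wall organization had 12 members upregulated and 1 downregulated among 29 (median 1.85), beside the same background of 50.3% and 2.03. Os10g0556100 had the most counts of the upregulated members, with 2166, 2684 and 4080 normalized counts in NIP and 8321, 14247 and 14103 in *Oslec1-1*. Its log2 fold change of 2.04 (standard error 0.29) was inside the limit without either of NIP LE-1 (1.86) and LE-2 (1.98) or of *Oslec1-1* LE-2 (1.91) and LE-3 (1.92). The member that fell was Os06g0718100 (chromosome 6, 30520195 to 30521345), with 2412, 2482 and 1739 normalized counts in NIP and 268, 125 and 120 in *Oslec1-1*, or 73.9 against 6.02 FPKM (log2 fold change -3.68, standard error 0.33, edgeR adjusted *p* = 0.000176).

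Transporters rose in part. Of 21 tested oligopeptide transporters, 8 were upregulated (median 1.74), of 16 amino acid transporters 6 (median 1.57), and of 27 anion transporters 14 (median 2.13), with 0 downregulated in each. Among all genes that rose at EE, 50.3% were upregulated with a median of 2.03, near or above these values. The differences were not tested. Os03g0197100 (chromosome 3, 5098241 to 5100592), listed as an anion and proton symporter, was the clearest case, with 16.4, 24.5 and 33.0 normalized counts in NIP and 3243, 3227 and 3329 in *Oslec1-1*. Its level rose from 1.38 to 166 FPKM (log2 fold change 7.01, standard error 0.20, edgeR adjusted *p* = 2.02e-06). Os03g0138700, an oligopeptide transporter, had 38.3, 117 and 491 in NIP and 604, 2022 and 1518 in *Oslec1-1*, and its adjusted *p* of 0.0314 in edgeR rose to 0.104 without NIP LE-2, to 0.0947 without *Oslec1-1* LE-2 and to 0.0782 without *Oslec1-1* LE-3.

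**Figure D3:**
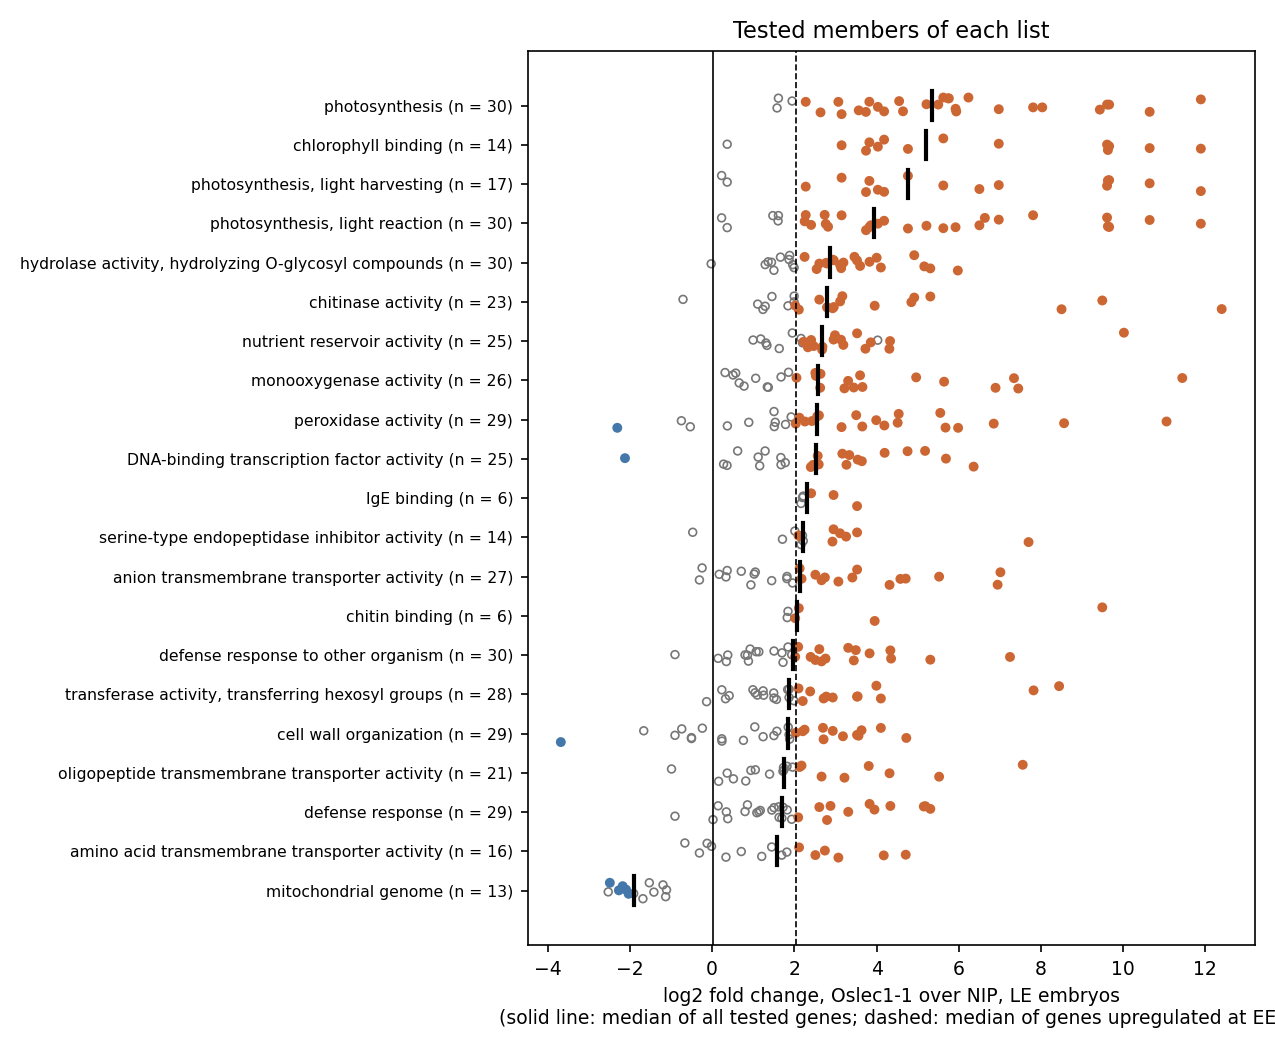
Each point is the log2 fold change of a tested gene, with filled points for genes called upregulated (orange) or downregulated (blue) and open points for genes not called, in rows by list with a black bar at the median. The photosynthesis lists have the highest medians (3.95 to 5.36), most other lists lie near the median of 2.03 of all genes upregulated at EE (dashed line), and the mitochondrial genes lie below 0.

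Downregulated genes carried few of these terms, since the lists came from genes that rose at EE. Of the 432 tested genes with any term, 240 were upregulated and 3 downregulated. The strongest loss in counts was that of Os08g0104400, which has no name or term in the sources used here. It had 629417, 678956 and 630655 normalized counts in NIP and 89606, 78831 and 78080 in *Oslec1-1* (log2 fold change -2.98, standard error 0.14, edgeR adjusted *p* = 1.04e-05). Os01g0111600 followed, with 84813, 94783 and 85971 in NIP and 6731, 7938 and 5708 in *Oslec1-1*. Among upregulated genes, the most counts were those of Os08g0473600, with 5402, 5809 and 4788 normalized counts in NIP and 67337, 71740 and 76314 in *Oslec1-1*, and Os02g0587000, with 11550, 9340 and 9599 against 57120, 46914 and 47512. The groups were far apart in all 4 genes, which were chosen after their values were seen.

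Transcripts of the mitochondrial genome, which encodes subunits of the respiratory chain and of the organelle's ribosomes, were lower in the mutant. All 13 tested genes had a negative log2 fold change (median -1.91). Of these, 6 had an adjusted *p* under 0.05 in edgeR, beside 21.3% of all tested genes that were lower without a fold limit. Called downregulated were 5 (38.5%), beside 1.24% of all tested genes. Their sums, over all 95 listed genes, were 942, 480 and 613 normalized counts in NIP and 83, 211 and 238 in *Oslec1-1*, with groups that did not overlap. The gene gene-cob, for apocytochrome b, had 142, 65.1 and 95.9 normalized counts in NIP and 7.503, 18.7 and 44.97 in *Oslec1-1* (log2 fold change -2.09, standard error 0.57, edgeR adjusted *p* = 0.0207). The gene gene-atp6, for a subunit of ATP synthase, had 41.0, 18.9 and 32.0 in NIP and 4.17, 7.87 and 3.91 in the mutant (log2 fold change -2.49, standard error 0.45, edgeR adjusted *p* = 0.00381). These transcripts are poorly captured by selection for poly(A), and *Oslec1-1* LE-1 was the lowest library for 8 of the 13. The part of RNA quality or capture in the difference was not tested. The number of downregulated members was 2 without NIP LE-1, 3 without *Oslec1-1* LE-1 and 8 without *Oslec1-1* LE-3. It was 0 when at least 10 counts in every library were required. That filter leaves out gene-cob and gene-atp6 for their low counts in the mutant, so the loss of their calls was fixed in advance.

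Among the RNA genes of the annotation, 56 were tested, of which 4 were upregulated and 1 downregulated, beside 8.29% and 1.24% of all tested genes. Their median log2 fold change was -0.64. Without a fold limit, 6 were higher and 15 lower at an adjusted *p* under 0.05 in edgeR, beside 25.6% and 21.3% of all tested genes. Of the 5 called RNA genes, 4 carry the name MIR1428, a family of microRNA precursors. The name is given to 13 loci, of which 5 were tested. ENSRNA049472287 (chromosome 2, 2535029 to 2535152) had 230, 290 and 324 normalized counts in NIP and 2, 1 and 0 counts in *Oslec1-1*, a ratio of 318 with a 95% counting interval of 109 to 1542. The other called loci went the opposite way. ENSRNA049467742 (chromosome 7, 5451322 to 5451445) had 10.9, 13.2 and 17.5 normalized counts in NIP and 745, 1164 and 920 in *Oslec1-1* (log2 fold change 6.05, standard error 0.25, edgeR adjusted *p* = 7.06e-06). ENSRNA049472788 (chromosome 1, 13160777 to 13160900) had 1, 0 and 0 counts in NIP and 377, 459 and 456 normalized counts in *Oslec1-1*, a ratio of 945 with a 95% counting interval of 170 to 37316. ENSRNA049472543 (chromosome 5, 18947050 to 18947173) had 0 counts in NIP and 70.0, 154 and 149 normalized counts in the mutant, at least 30.3-fold higher. ENSRNA049473244 on chromosome 3 did not pass the test (log2 fold change 0.06, standard error 0.36). Copies of a family may share reads, libraries of polyadenylated RNA do not measure mature microRNAs, and these loci stay uncertain for that reason. A MIR164 locus, ENSRNA049475964, had 159, 244 and 204 normalized counts in NIP and 43.3, 62.95 and 50.8 in *Oslec1-1*, just inside the fold limit (log2 fold change -1.96, standard error 0.22).

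Some upregulated genes lay side by side. Of 1991 upregulated nuclear genes, 604 (30.3%) had an upregulated gene next to them among the tested genes, as did 14.2% of the 22004 nuclear genes that were not upregulated, and 65 runs of 3 or more such genes were found. For downregulated genes, 46 of 292 (15.8%) had a downregulated gene next to them, as did 2.24% of the 23703 others, and there were 2 runs. The longest run had 13 upregulated genes within 137.8 kb of chromosome 7 (21144789 to 21282626), with log2 fold changes of 2.07 to 6.04 (median 4.18). The terms of O-glycosyl hydrolysis were attached to 2 of the 13, Os07g0538000 and Os07g0539100. Os07g0539100 rose from a mean of 31.1 to 1867 normalized counts (log2 fold change 5.98, standard error 0.38, edgeR adjusted *p* = 3.6e-05). Tested genes on either side of the run were not called. Neighbouring genes may be copies that share reads, which was not tested. By chromosome, the upregulated share was 11.1% on chromosome 11 and 7.15% to 9.5% on the others.

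**Figure D4:**
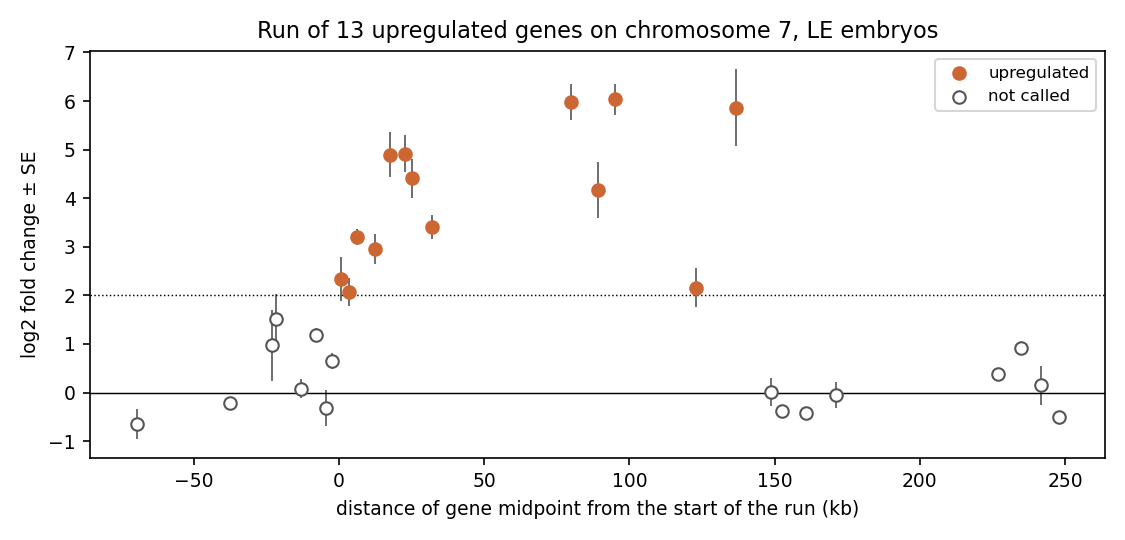
Log2 fold change with its standard error of tested genes on chromosome 7, plotted by the distance of their midpoint in kb from the start of the longest run. The 13 upregulated genes (filled) lie above the limit of 2 (dotted line) and the tested genes on either side (open) below it.

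The mutant effect at LE was set beside that at EE, where NIP and *Oslec1-1* embryos of 7 DAP were compared in the same way. Stage and the series of library codes cannot be told apart, although both genotypes of a stage share a series. Of the 1995 genes upregulated at LE, 1530 were tested at EE and 1086 of these were upregulated there (71.0%), while 10 were downregulated. Of the 298 downregulated genes, 217 were tested at EE and 143 were downregulated there (65.9%), while 8 were upregulated. The matching shares of all genes tested at EE are not given here. In the other direction, 50.3% of the 2157 genes upregulated at EE were upregulated at LE, beside 8.29% of all tested genes. The downregulated shares were 0.371% and 1.24%. In the interaction test of genotype and stage, 33.4% of all tested genes had an adjusted *p* under 0.05. Among the genes upregulated at LE, the effect was higher at LE for 368 and lower for 218 of 1966. These genes were chosen by their rise at LE, which favours a larger effect at LE, so the tally does not show that effects grew. The GO lists were chosen on their rise at EE, which favours a larger effect there, so their own tallies are not set against these.

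The genes of the transcription factor, peroxidase and cell wall lists that fell at LE belong to lists made from genes that rose at EE, so that their rise at EE was fixed by the choice. Os06g0718100 had 147, 205 and 150 normalized counts in NIP EE embryos and 2414, 1230 and 1173 in *Oslec1-1*, so that its log2 fold change was 3.27 at EE and -3.68 at LE (difference -6.98, standard error 0.49, edgeR adjusted *p* = 8.31e-07). Os06g0181700 moved from 3.63 at EE to -2.12 at LE (difference -5.78, edgeR adjusted *p* = 4.17e-06), and Os07g0639000 from 3.01 to -2.31 (difference -5.34, edgeR adjusted *p* = 5.79e-07). Os08g0473600, the upregulated gene with the most counts at LE, was downregulated at EE, from 57029, 40604 and 59745 normalized counts in NIP to 4657, 6556 and 5935 in *Oslec1-1*. In NIP its normalized counts were higher at EE than at LE, and in *Oslec1-1* the order was the opposite. The stages were normalized separately, and the change between stages within a genotype was not tested.

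Effects much larger at LE included that of the transcription factor gene Os03g0183000. It had 269, 238 and 252 normalized counts in NIP EE embryos and 1204, 1198 and 1377 in *Oslec1-1* EE embryos, so that it was similar in the mutant at both stages and lower in the wild type at LE (difference of the log2 fold changes 3.35, standard error 0.17, edgeR adjusted *p* = 1e-07). Levels of the stages were normalized separately, and only the difference of the effects was tested. Effects much smaller at LE included that of the hydrolase gene Os07g0538000, which had 0 counts in NIP and 437, 542 and 532 normalized counts in *Oslec1-1* at EE. At LE it had 90.2, 60.4 and 72.2 normalized counts in NIP and 709, 600 and 713 in *Oslec1-1* (difference -9.12, standard error 0.67, edgeR adjusted *p* = 4.26e-06).

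**Figure D5:**
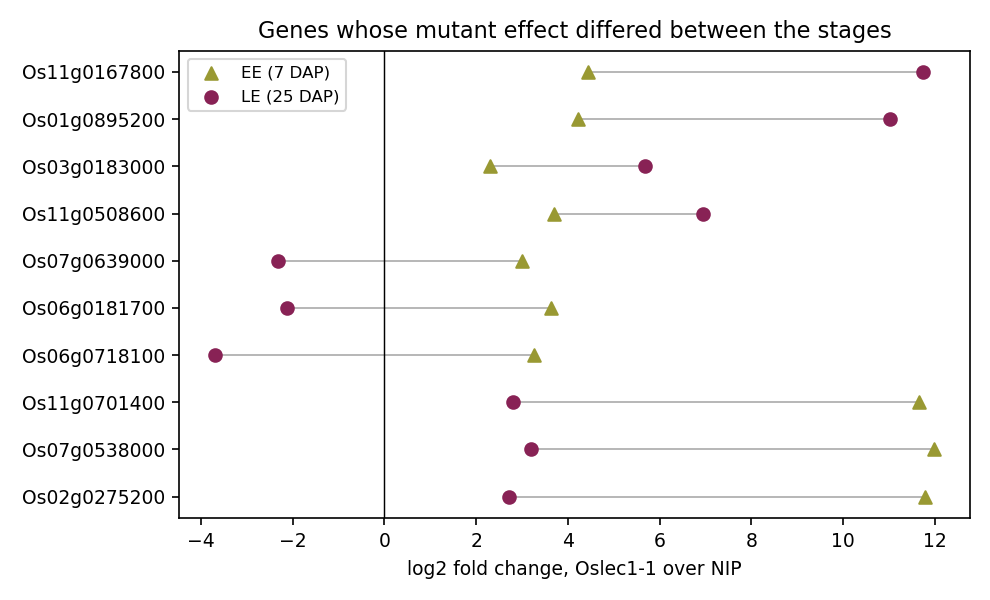
Log2 fold change of *Oslec1-1* over NIP at EE (triangles) and LE (circles) for 10 genes, joined by a line for each gene, with values below 0 lower in the mutant. Of these, 4 had a larger effect at LE, 3 turned from higher in the mutant at EE to lower at LE, and 3 had a smaller effect at LE.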

How the data were processed

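Polyadenylated RNA of LE embryos was sequenced in 3 libraries per genotype. The authors trimmed reads with Trimmomatic 0.36, mapped them to IRGSP-1.0 with HISAT2 2.1.0 and deposited whole-number counts per gene without normalization. The counting program is not given in the sources used here. The authors also deposited FPKM, TPM and coverage per gene from StringTie 1.3.4d, as the file headers name them. FPKM served to give levels per length and in alternatives, and TPM and coverage were not used. Counts had 0 columns of no sample.

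The LE counts were tested in R 4.3.3 with edgeR 4.0.16 (filterByExpr, TMM, quasi-likelihood test). A call needed an adjusted *p* under 0.05 and a log2 fold change of 2 or more in size. The difference between stages was tested as a genotype by stage interaction, with the 12 libraries in 1 fit. Each standard error is the size of the log2 estimate divided by the square root of its quasi-likelihood F statistic. It is therefore derived from the test and approximate. Folds against a group at 0 used a floor of 3 counts per library. Counting intervals are exact Poisson intervals at 95%. Alternatives were DESeq2 1.42.0, limma 3.58.1 on log2 FPKM, other scalings, filters and fold limits, and each replicate left out. On simulated data with log2 changes of 2, 3 or 4, the LE test was scored at a log2 fold limit of 1. It found 200 of 200 changed genes, with 3 unchanged genes called among 23947 tested. The interaction test, scored without a fold limit, found 200 of 200, with 9 called among 24220. Changed genes were drawn from well-counted genes, and all genes had the same small spread. The simulation therefore does not show how calls fare at the limit of 2, at low counts or in noisy genes.

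The comparison, its gene lists and the genes shown were chosen with earlier results of these data known. The planned lists by RefSeq product name could not be applied, since the reference table pairs no such names with the identifiers used in the counts. GO terms of the study's supplement (71 terms and 481 genes, at most 30 identifiers per term in the copy used) took their place, and most of these lists were added after the files were seen. Genes named were, per direction, the 10 largest changes with 100 or more normalized counts on average in the higher group, no overlap between groups and a GO term or a name, per list the 3 called members with the most counts, and the 4 genes per direction with the largest difference between stages. A selection of these is printed, with the exceptions named in the text. The sources gave no sequences for the genes described.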

Additional observations from a re-analysis of the deposited data

Results flagged for a closer look

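The mutant effect differed between LE and EE (edgeR interaction test, adjusted over all tested genes) for the 8 genes picked by the size of this difference, whose values are therefore a description. The effect was higher at LE, on the log2 scale, by 7.01 for Os11g0167800 (response to oxidative stress), by 6.53 for Os01g0895200 (oxidation-reduction process), by 3.35 for Os03g0183000 (transcription factor activity) and by 3.22 for Os11g0508600 (anion transport). Both Os11g0167800 and Os01g0895200 had 0 counts in all NIP LE libraries. The difference was -9.92 for ENSRNA049472287 (MIR1428), which at EE had 0.876 normalized counts in *Oslec1-1* EE-2 and 0 in every other library. This gene was not tested at EE alone, and its difference did not pass without *Oslec1-1* EE-2. The difference was -9.41 for Os02g0275200 (hexosyl transferase activity), -9.12 for Os07g0538000 (O-glycosyl hydrolase activity) and -8.92 for Os11g0701400 (chitinase activity), which had 0 to 3.57 normalized counts in each NIP EE library and rose at both stages. Estimates that involve a group at or near 0 depend on the prior count of the fit and are no measure of the size of a fold. Stage and library code series are confounded here and cannot be told apart.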

How the results depend on the processing

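The numbers of upregulated and downregulated genes were 1995 and 298, and 708 and 159 with at least 10 counts in every library, 965 and 87 with glmTreat against a log2 fold change of 2, 3796 and 1230 with a limit of 1, and 827 and 93 with limma on log2(FPKM + 1). The other settings stayed within 1.5 times, among them DESeq2 (2475 and 403), no filter (2551 and 391) and library size only (2135 and 263). Leaving out a replicate gave 1947 to 2524 and 318 to 365. With the replicate number as a block there were 2049 and 307. The deviations of same-numbered libraries correlated at 0.398, -0.0236 and 0.211, and those of the other pairs at -0.433 to 0.323. With 3 libraries per group, these values cannot decide whether the numbers pair the samples. The count of 8 genes whose effect differed between stages stayed at 7 or 8 in all settings run, 8 with the replicate block. ENSRNA049472287 was lost without *Oslec1-1* EE-2, and Os11g0167800 without NIP EE-1 (edgeR adjusted *p* = 0.0671). None of the 71 log2 fold changes of single genes changed direction in the settings that gave a value. Of these genes, 25 lost their call with glmTreat and 5 to 12 when a replicate was left out. The strict filter leaves out genes silent in a genotype, so folds of such genes rest on few counts.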
